A study of Mus musculus with 4 samples.

Results

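Membrane serine proteases and their Kunitz inhibitors were followed in mouse liver through 10 genes of the 18193 that the array annotation names. They comprised 5 type II transmembrane serine proteases (Tmprss2, Tmprss3, Tmprss4, hepsin Hpn and matriptase St14), the lipid-anchored protease prostasin (Prss8), the inhibitors Spint1 and Spint2, the HGF activator Hgfac and hepatocyte growth factor (Hgf). The set was taken because the signal of Tmprss4 was higher on the G9aKO arrays of this same comparison, and its other members were chosen by role. The value of Tmprss4 therefore chose the set, and it is given as a description with no test.

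The arrays were hybridised with RNA of non-tumorous liver from 2 G9aKO mice and 2 WT mice, 1 array per mouse. G9aKO mice carried Alb-Cre and G9a flox/flox, so that Cre driven by the albumin promoter deleted the H3K9 methyltransferase G9a in hepatocytes. The paper found some G9a protein left in whole liver and placed it probably in cells other than hepatocytes. Which of those cells kept the gene, bile duct cells among them, was not analysed here. WT mice also carried Alb-Cre, with G9a +/+. Both groups were males backcrossed to C57BL/6, aged 30 weeks, and both had received the DNA-damaging carcinogen diethylnitrosamine (DEN) at 25 mg/kg at the age of 15 days and then 22 weekly injections of the hepatotoxin carbon tetrachloride (CCl4) at 0.5 ml/kg. No liver without DEN and CCl4 was measured, so the genotypes were compared only in injured liver.

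Type II transmembrane serine proteases sit in the plasma membrane with the catalytic domain outside the cell, where they cut growth factors, receptors and one another. Kunitz domains are small folds that plug the active site of trypsin-like proteases, and the membrane-bound inhibitors HAI-1 (Spint1) and HAI-2 (Spint2) use them to hold these enzymes in check. One shared substrate is HGF, a potent mitogen of hepatocytes, which is secreted as an inactive chain and must be cleaved before it can activate its receptor Met.

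Signals are MAS5 intensities on a linear scale, and each probe set also carries a detection call of Present, Marginal or Absent on each array. The 2% trimmed mean signal was 500.0 on every array, 41.3% to 43.9% of probe sets were Present, and the 95% quantile of Absent signals was 170.5 to 181.1. The ratio of 3′ to 5′ beta-actin signals, which falls as RNA is more intact, was 2.545 and 2.033 in G9aKO livers and 2.027 and 2.227 in WT livers, overlapping. That of Gapdh was 0.763 and 0.738 in G9aKO livers and 0.705 and 0.688 in WT livers, higher on both G9aKO arrays, and its part in the results was not tested. Log2 signals correlated at 0.9703 and 0.9708 within genotypes and at 0.9588 to 0.9668 between them. Ehmt2, the gene of G9a, was at 174.1 and 163.7 in G9aKO livers, Absent on both arrays, against 640.4 and 492.5 in WT livers, Present on both, at least 3.33-fold higher in WT. A further Ehmt2 probe set gave no Present call, and where the probes lie relative to the deleted exons was not analysed here. All 12 hepatocyte markers had a tested probe set, with albumin (Alb) at 65620 and 57070 in G9aKO livers and 69480 and 63620 in WT livers.

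The 10 members had 16 probe sets, and 7 members had only 1. Present calls on all 4 arrays were made at 7 probe sets, belonging to Tmprss2, Hpn, Spint2 and Hgfac. Another 5 probe sets had no Present call on any array, 3 had 2 and 1 had 1. A gene was tested at its brightest probe set Present on at least 2 arrays, which left 6 members, and Tmprss3, St14, Prss8 and Spint1 were not tested. Tmprss4 met this filter only through its Present calls on the G9aKO arrays. Of the 6, 1 passed an adjusted p threshold of 0.05 as higher in G9aKO, where 0.319% of the 10350 genes tested did. It was Tmprss4, so nothing is read from this count. As lower, 0 members passed, where 0.0676% of genes did. Of the 5 tested members other than Tmprss4, an unadjusted p under 0.05 in limma was given by 1 as higher, Hgfac, where 5.92% of genes had one, and by 0 as lower, where 4.1% of genes had one. Over all 16 probe sets, both G9aKO arrays lay above both WT arrays at 8 and below them at 2. The groups overlapped at 6. Of all probe sets naming 1 gene, 19.9% were non-overlapping and higher and 17.5% were non-overlapping and lower. The 8 include the probe set of Tmprss4, whose value chose the set, and both probe sets of Spint2, so nothing is read from this count.

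**Figure D1:**
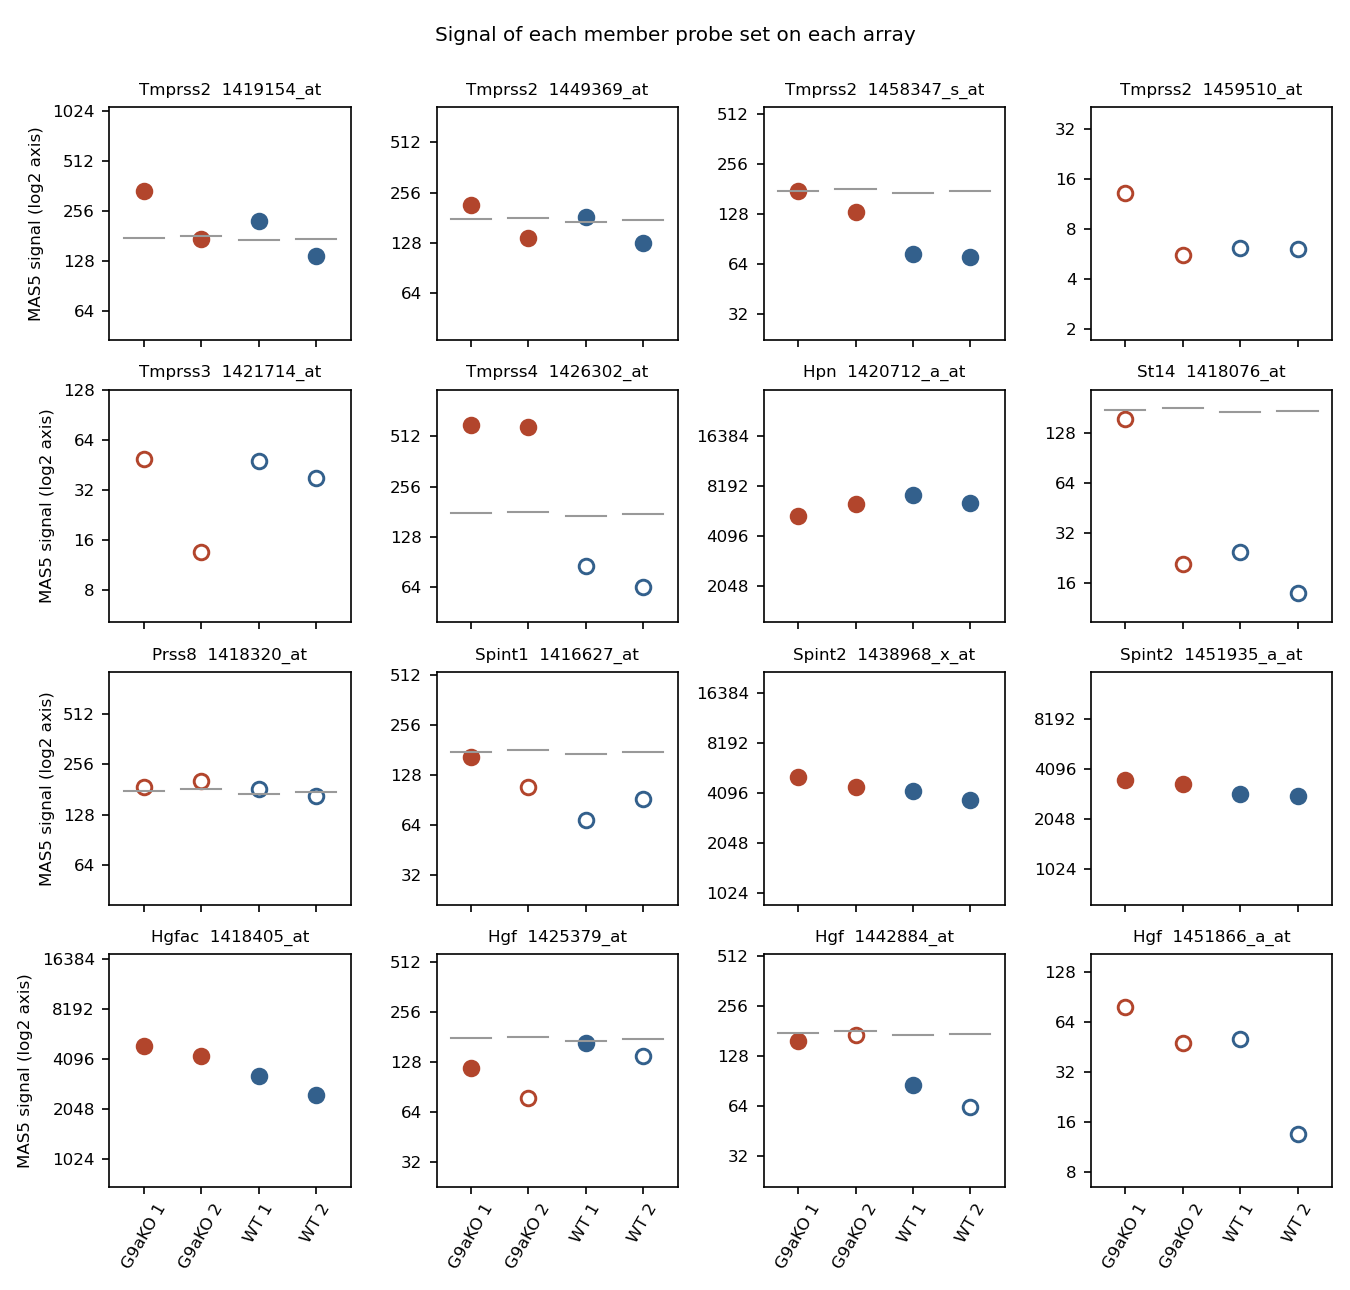
MAS5 signal (log2 axis) of the 16 member probe sets on each array, with G9aKO arrays in red left of WT arrays in blue, filled points for Present calls, open points for Marginal or Absent calls, and grey bars at the 95% quantile of Absent signals (170.5 to 181.1) where it falls within the panel. Tmprss4 sits at 600.6 and 586.7 in G9aKO livers and below the bars at 84.93 and 63.76 in WT livers.

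Among the transmembrane proteases, Tmprss4 was the member with the largest difference. Tmprss4 is an epithelial protease described as overexpressed in several carcinomas. Its only probe set, 1426302_at, had signals of 600.6 and 586.7 in G9aKO livers, both Present with a detection p of 0.00195, against 84.93 and 63.76 in WT livers, both Absent with detection p of 0.112 and 0.366. The pair of G9aKO arrays lay close together (594 ± 9.85, SD, n = 2) and far above the pair of WT arrays (74.3 ± 15, SD, n = 2), whose signals were below the 95% quantile of Absent signals. Between mean log2 signals the measured fold was 8.07. Because the WT signals were called Absent, it is given as at least 8.07-fold, with each WT array taken at the higher of its own signal at the probe set and its lowest Present signal, and on both WT arrays its own signal was the higher. With the 95% quantile of Absent signals as the floor it was at least 3.44-fold.

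As measured, the log2 difference of Tmprss4 was 3.01, and over the single pairs of a G9aKO and a WT array it ranged 2.79 to 3.24. Leaving out each array in turn gave 3.0 without G9aKO 1, 3.03 without G9aKO 2, 3.22 without WT 1 and 2.81 without WT 2. With log2(signal + 16) in place of log2 signal it was 2.76.

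The genes whose pattern over the 4 arrays was closest to that of Tmprss4, by Euclidean distance between log2 signals centred on each gene's mean, were Adgrv1, Lama3, 2310034O05Rik, Rhox5 and Hamp2. Adgrv1, a very large adhesion G protein-coupled receptor, was nearest at a distance of 0.33, with 2124 and 1887 in G9aKO livers and 350.5 and 272.3 in WT livers. Lama3, the alpha chain of the basement membrane laminin of epithelia, followed at 0.43 with 1394 and 1066 in G9aKO livers and 233.4 and 140.6 in WT livers. Both were Present on all 4 arrays, unlike Tmprss4. 2310034O05Rik lay at 0.55, with 210.4 and 244.3 Present in G9aKO livers and 44.2 and 20.15 Absent in WT livers. The homeobox gene Rhox5 lay at 0.62 and had 994.6 and 808.6 in G9aKO livers and 115.6 and 148.4 in WT livers. Hamp2, a mouse paralogue of the iron hormone hepcidin whose probes may share sequence with Hamp, lay at 0.64 with 15060 and 16070 in G9aKO livers and 3144 and 2759 in WT livers. These likenesses rest on 4 arrays and are descriptions.

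Tmprss2, an androgen-responsive epithelial protease best known for priming viral spike proteins, gave probe sets that differed in how they separated the genotypes. At the tested probe set 1419154_at it had 337 and 174 in G9aKO livers against 222.7 and 137.2 in WT livers, all Present, and the groups overlapped. The log2 difference was 0.47 (SE 0.42, 95% interval -0.55 to 1.49, adjusted p = 0.751), and it was -0.01 without G9aKO 1. Its second probe set, 1449369_at, likewise overlapped, with 216.6 and 136.4 in G9aKO livers and 181.3 and 128 in WT livers. That difference was 0.17 (SE 0.36, adjusted p = 0.911 over probe sets). At both probe sets the first array of each genotype was the higher one.

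The third probe set of Tmprss2, 1458347_s_at, separated the genotypes, with 176.8 and 131.4 in G9aKO livers and 73.88 and 70.91 in WT livers, all Present. Here the log2 difference was 1.07 (SE 0.36, 95% interval 0.21 to 1.94), with an adjusted p of 0.442 over the 17158 probe sets tested, and leaving out any 1 array gave 0.86 to 1.29. Only 1 of its 4 signals reached the 95% quantile of Absent signals of its array, and the suffix _s_at marks probes that can match more than 1 transcript. The fourth probe set, 1459510_at, was Absent on all arrays at 13.19 and 5.598 in G9aKO livers and 6.124 and 6.055 in WT livers.

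Hepsin (Hpn), a protease abundant on hepatocytes that can cleave pro-HGF, ran slightly the other way. Its signals were 5347 and 6334 in G9aKO livers and 7157 and 6414 in WT livers, Present on all 4 arrays. Both G9aKO arrays were below both WT arrays, but the gap between G9aKO 2 and WT 2 was narrow, at -0.02 on the log2 scale. The log2 difference was -0.22 (SE 0.13, 95% interval -0.55 to 0.11, adjusted p = 0.642). It stayed below 0 with each array left out, between -0.34 and -0.10, and the interval covers 0.

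The remaining membrane proteases gave no Present call. Tmprss3, whose human counterpart is a deafness gene, was Absent at 48.99 and 13.52 in G9aKO livers and 48.17 and 37.86 in WT livers, with overlapping groups. Matriptase (St14), which works on epithelial surfaces and can activate both pro-HGF and prostasin, was Absent at 156.9 and 21.07 in G9aKO livers and 24.83 and 13.95 in WT livers. Its high signal was on G9aKO 1 alone, and G9aKO 2 lay between the WT arrays. Prostasin (Prss8), an activator of the epithelial sodium channel, was also called Absent throughout, at 186.7 and 204.1 in G9aKO livers and 183.4 and 166.2 in WT livers. Its signals nonetheless exceeded the 95% quantile of Absent signals on 3 arrays, the G9aKO pair lay above the WT pair, and the log2 difference was 0.16. At these signals no difference was measurable for the 3 genes.

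The inhibitors differed in how well they were measured. Spint2, encoding HAI-2, was Present on every array with each of its probe sets. Its tested probe set, 1438968_x_at, had 5098 and 4435 in G9aKO livers (4770 ± 469, SD, n = 2) and 4170 and 3719 in WT livers (3940 ± 319, SD, n = 2). At 1451935_a_at it had 3487 and 3322 in G9aKO livers and 2887 and 2805 in WT livers. Both G9aKO arrays exceeded both WT arrays at each probe set. The log2 differences were 0.27 (SE 0.13, 95% interval -0.05 to 0.60, adjusted p = 0.561) and 0.26 (SE 0.12, adjusted p = 0.572 over probe sets). With any 1 array left out, 1438968_x_at gave 0.17 to 0.37 and 1451935_a_at gave 0.22 to 0.29. The suffixes _x_at and _a_at mark possible cross-hybridisation and shared transcripts of 1 gene.

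Spint1, encoding HAI-1, the main partner of matriptase, was Present on 1 array only and was not tested. Its signals were 164.8 (Present) and 108.6 (Marginal) in G9aKO livers and 68.77 and 91.46 (both Absent) in WT livers. The groups did not overlap, with a log2 difference of 0.75 and at least 1.69-fold over the WT floor. None of the 4 signals exceeded the 95% quantile of Absent signals, and with that quantile as the floor no bound could be given.

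Hgfac encodes the HGF activator, a protease that hepatocytes secrete into plasma as a zymogen and that Spint1 and Spint2 inhibit. It had 4879 and 4267 in G9aKO livers (4570 ± 433, SD, n = 2) and 3209 and 2471 in WT livers (2840 ± 522, SD, n = 2), Present on all 4 arrays. Both G9aKO arrays were above both WT arrays. Its log2 difference of 0.70 (SE 0.17, 95% interval 0.29 to 1.10), or 1.62-fold, was the second largest among members at their tested probe sets and ranked 623 of 10350 genes. It did not pass the test after adjustment over all genes (adjusted p = 0.244). Single pairs of arrays gave 0.41 to 0.98, and leaving out each array gave 0.51 to 0.88.

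Hgf, the growth factor itself, is made in liver mainly by stellate and other non-parenchymal cells and has a protease-like fold without catalytic activity. Its probe sets disagreed in direction. At the tested 1425379_at it had 116.8 and 77.03 in G9aKO livers and 166 and 139 in WT livers, with G9aKO lower (log2 difference -0.68, SE 0.36, 95% interval -1.57 to 0.21, adjusted p = 0.591). At 1442884_at it had 157.7 and 172.1 in G9aKO livers and 85.87 and 63.71 in WT livers, with G9aKO higher (log2 difference 1.16, SE 0.35, adjusted p = 0.397 over probe sets). Both probe sets were Present on G9aKO 1 and WT 1 and Absent on the other arrays. The third, 1451866_a_at, was Absent throughout at 78.49 and 48.02 in G9aKO livers and 50.75 and 13.52 in WT livers. No Hgf signal exceeded the 95% quantile of Absent signals, and the mean of the probe sets Present on at least 2 arrays gave 0.24, so a direction for Hgf was not settled by these arrays.

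**Figure D2:**
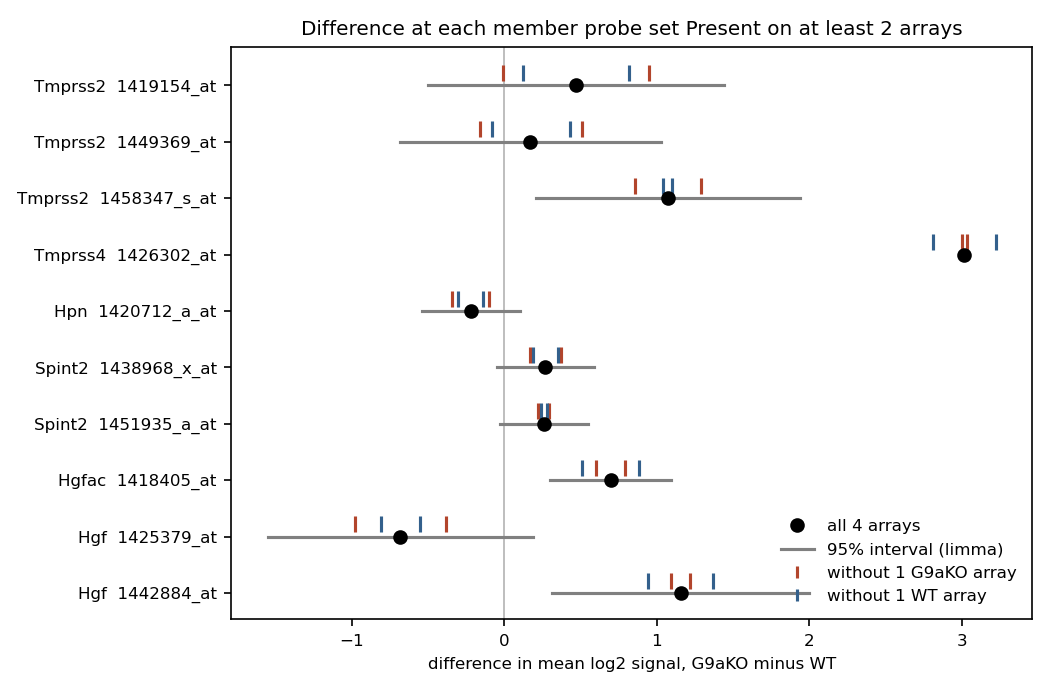
Log2 difference (G9aKO minus WT) of the 10 member probe sets Present on at least 2 arrays, with black points for all 4 arrays, grey 95% limma intervals from the fit over probe sets, and ticks for values without 1 G9aKO array (red) or without 1 WT array (blue). Tmprss4 at 3.01 is shown with no interval, Hgfac lies at 0.70, and the pair of Hgf probe sets lies on opposite sides of 0 at -0.68 and 1.16.

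Promoter sequence was matched for 7 of the 10 members, with 10 start sites, from RefSeq on GRCm38.p6, each covering 250 bases before the start and 50 after it. Hgfac and Spint2 are shown because they were the tested members, apart from Tmprss4, whose G9aKO arrays lay above the WT arrays at every probe set. Capitals mark matches on either strand to 3 motifs: GTTAAT or ATTAAC (a partial site of the hepatocyte factor HNF1), GGGCGG or CCGCCC (the GC box), and TATAAA or TTTATA (the TATA box). The sequences, read 5′ to 3′ along the gene's strand, are the Hgfac promoter at chr5:35041259-35041558 on the plus strand and the Spint2 promoter at chr7:29281928-29282227 on the minus strand.
Hgfac: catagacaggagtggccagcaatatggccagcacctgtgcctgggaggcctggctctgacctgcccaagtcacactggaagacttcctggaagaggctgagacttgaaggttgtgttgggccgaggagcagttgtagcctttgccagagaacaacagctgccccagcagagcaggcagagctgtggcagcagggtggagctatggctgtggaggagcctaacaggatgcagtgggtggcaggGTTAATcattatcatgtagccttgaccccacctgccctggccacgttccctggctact
Spint2: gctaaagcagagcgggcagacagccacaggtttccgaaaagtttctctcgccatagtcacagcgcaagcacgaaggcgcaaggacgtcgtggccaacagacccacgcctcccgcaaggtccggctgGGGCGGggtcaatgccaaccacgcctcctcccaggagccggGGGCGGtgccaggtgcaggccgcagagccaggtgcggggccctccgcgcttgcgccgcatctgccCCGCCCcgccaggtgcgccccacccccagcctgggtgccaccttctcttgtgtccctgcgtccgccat
The Hgfac window had a GC content of 58.3%, 2 CpG dinucleotides and 1 partial HNF1 site, a motif found in 7.1% of the 32851 promoters in the same table. The Spint2 window was richer in GC, at 69.3%, with 26 CpG dinucleotides and 3 GC boxes, a motif found in 35.7% of promoters. The TATA box, in 13.6% of promoters, was in neither. Over all promoters the median was 7 CpG dinucleotides and 52.7% GC. These matches describe letters in the window and were not linked to the signals.

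Within each genotype, 1 array was above the other at most member probe sets. G9aKO 1 was above G9aKO 2 at 13 of the 16 member probe sets, where 51.8% of all probe sets naming 1 gene were, and WT 1 was above WT 2 at 15 of 16, where 49.7% were. Probe sets of 1 gene are not independent. The exceptions were Hpn, Prss8 and 1442884_at of Hgf between the G9aKO arrays and Spint1 between the WT arrays. Summed over the 6 tested members, the signal was 16380 and 15870 in G9aKO livers and 15010 and 12940 in WT livers.

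Other genes of the pathway were described from 6 lists taken for their roles, beside all genes tested. Those had a median log2 difference of 0.02, and 53.4% of them were above 0. Of the 35 genes tested in these lists, 0 passed the adjusted threshold in limma or by the methods' t-test, and at an unadjusted p under 0.05 the methods' t-test gave 0. Limma then gave 2 higher (Cdcp1 and Col6a3) and 1 lower (Met), where 5.92% of all genes were higher and 4.1% lower. Of 16 other type II transmembrane serine proteases 10 were on the array and 8 of those were Absent throughout. Matriptase-2 (Tmprss6), the hepatocyte protease that lowers hepcidin, was at 8979 and 10040 in G9aKO livers and 10540 and 8553 in WT livers, with a log2 difference of 0.00 (SE 0.14). Corin, the protease that activates atrial natriuretic peptide, had a log2 difference of 3.20, but with an SE of 2.18 and overlapping groups (110.4 and 199.7 in G9aKO livers, 201.7 and 1.293 in WT livers, adjusted p = 0.68). The signal of WT 2 was Absent, and WT 1 lay above both G9aKO arrays.

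Among 15 other trypsin-like Prss and tryptase genes 6 were tested, with a median log2 difference of 0.30, 4 above 0 and 2 below. Prss22 had the smallest p (adjusted p = 0.542), but it met the detection filter only through its Present calls on the G9aKO arrays. Its signals were 62.29 and 53.76 (Present) in G9aKO livers and 26.88 and 13.56 (Absent) in WT livers, at least 2.63-fold. All of them lay below the quantile of Absent signals used as the higher floor for Tmprss4. With that floor no bound could be given for Prss22. Prss23 (log2 difference 0.59, adjusted p = 0.642) and Prss36 (log2 difference 0.49, adjusted p = 0.715) overlapped between groups. Of 14 other Kunitz domain genes 6 were tested, with a median of 0.15 (0.04 to 0.24 over the arrays left out), 4 above 0 and 2 below. Col6a3, a matrix collagen chain that carries a Kunitz domain, had 753.1 and 374.3 in G9aKO livers and 267.4 and 300.7 in WT livers (log2 difference 0.90, SE 0.35, adjusted p = 0.479). Tfpi2, an inhibitor of plasmin and the tissue factor pathway, was at 0.19 (adjusted p = 0.64), and Ambp, the precursor of bikunin, at -0.15 (adjusted p = 0.693).

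On the receptor side, 9 of 10 genes were tested, with 3 above 0, 6 below and a median of -0.01 (-0.02 to 0.05 over the arrays left out). Met, the HGF receptor, had 1576 and 1948 in G9aKO livers and 2733 and 2342 in WT livers, with both G9aKO arrays lower. Its log2 difference of -0.53 (SE 0.16) did not pass the test (adjusted p = 0.379). The adaptor Grb2 (log2 difference 0.38, adjusted p = 0.623) and the Met co-receptor Cd44 (0.42, adjusted p = 0.642) lay above 0. Mst1r, the receptor of macrophage-stimulating protein, was Absent on all arrays.

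Soluble proteases and inhibitors that act on HGF processing were nearly level, with 8 of 11 genes tested, 7 above 0, a median of 0.05 (-0.02 to 0.14 over the arrays left out) and gene values of -0.01 to 0.32. The urokinase receptor Plaur (log2 difference 0.32, adjusted p = 0.728), coagulation factor F11 (0.29, adjusted p = 0.743) and tissue plasminogen activator Plat (0.29, adjusted p = 0.869) had the smallest p, and Plau and Serpina5 were Absent throughout. Among 13 substrates and partners, 4 were tested, with a median of 0.14 that was -0.11 without G9aKO 1, -0.02 without WT 2 and 0.40 without WT 1. Cdcp1, a membrane protein cut by matriptase, had 478.5 and 287.6 in G9aKO livers and 209.2 and 130.4 in WT livers, and the groups did not overlap (log2 difference 1.17, SE 0.36, adjusted p = 0.381). The sodium channel subunit Scnn1a (0.17, adjusted p = 0.884) and the Tmprss6 substrate Hjv (0.12, adjusted p = 0.896) overlapped. Epcam, an epithelial adhesion protein that matriptase cleaves, was not tested, being Present only on G9aKO 2, with 175 and 228.1 in G9aKO livers and 61.55 and 131.3 in WT livers.

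**Figure D3:**
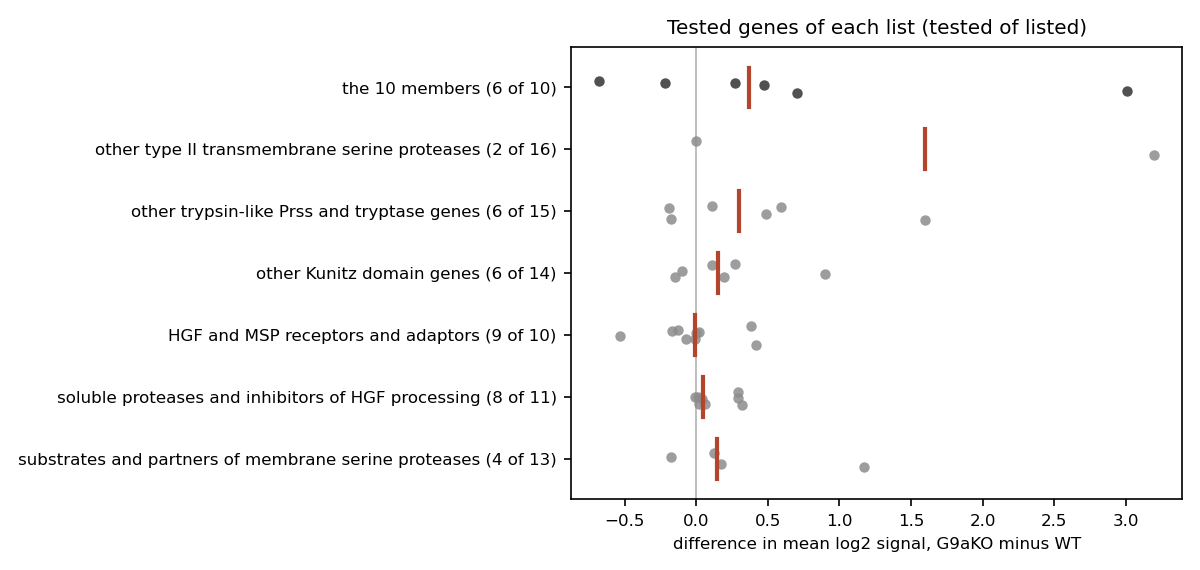
Log2 difference (G9aKO minus WT) of each tested gene in the members and in 6 lists of related genes, each point a gene and each red bar the median of its list, with tested and listed genes counted in the labels. Corin lies at 3.20 with overlapping groups and Tmprss4 at 3.01, and the other points lie between -0.68 and 1.60.

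Hepatocytes are the main epithelial cells of liver, and cholangiocytes line its bile ducts. In whole liver, fewer cells of a type and less RNA per cell cannot be told apart. Of 12 cholangiocyte markers on the array 7 were tested, and 6 were above 0, where 53.4% of all genes tested were. None passed the adjusted threshold in limma or by the methods' t-test (3 and 0 at an unadjusted p under 0.05, all higher, where limma gave 5.92% of all genes as higher). Their median log2 difference was 0.49, and 0.19 to 0.86 when each array was left out. Their summed signal was 10070 and 7536 in G9aKO livers and 5960 and 6157 in WT livers. Most of it was Anxa5 alone, with 6766 and 5065 in G9aKO livers and 3777 and 4615 in WT livers. The 5 markers not tested, Krt19 and Krt7 among them, are not in the sum. Pkhd1, the cholangiocyte gene mutated in recessive polycystic kidney disease, had 477.8 and 286.2 in G9aKO livers and 74.79 and 120 in WT livers (log2 difference 1.96, SE 0.38, adjusted p = 0.163).

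The other cholangiocyte markers were less even. Cd24a (log2 difference 1.71, adjusted p = 0.268) and Anxa5 (0.49, adjusted p = 0.466) did not overlap between groups. Krt19, a defining keratin of bile ducts, was Present only on G9aKO 1 and overlapped, with 159.7 and 90.24 in G9aKO livers and 139.4 and 83.98 in WT livers. Krt7, the other biliary keratin, had 133.4 (Present) and 131.6 (Marginal) in G9aKO livers and 33.33 and 82 (both Absent) in WT livers. Muc1 and Cldn4 were Absent on every array. The part of cholangiocytes in the Tmprss4 value was not tested.

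Stellate cell and fibroblast markers, which bear on the cells that make Hgf, had 12 of 13 genes tested. All 12 were above 0, where 53.4% of all genes tested were, with a median of 0.43 that was 0.15 without G9aKO 1. Their summed signal was 26310 and 17160 in G9aKO livers and 15210 and 20140 in WT livers, so the sums overlapped between groups. Gene by gene, both G9aKO arrays were above both WT arrays at 8 of the 12 and below them at 0. Of all probe sets naming 1 gene, 19.9% were above and 17.5% below in this way. Acta2, the actin of activated stellate cells, was at 1.10 (adjusted p = 0.198). It was Present on G9aKO 1 and WT 2, Marginal on G9aKO 2 and Absent on WT 1. Hand2 was at 0.52 (adjusted p = 0.53) and Col1a2 at 0.80 (adjusted p = 0.536), and Des was Absent on all arrays. The part of stellate cells and fibroblasts in the Hgf and Col6a3 values was not tested. Hepatocyte markers had a median of -0.05, with 4 above 0 and 8 below and sums of 543500 and 483700 in G9aKO livers and 549300 and 529800 in WT livers.

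**Figure D4:**
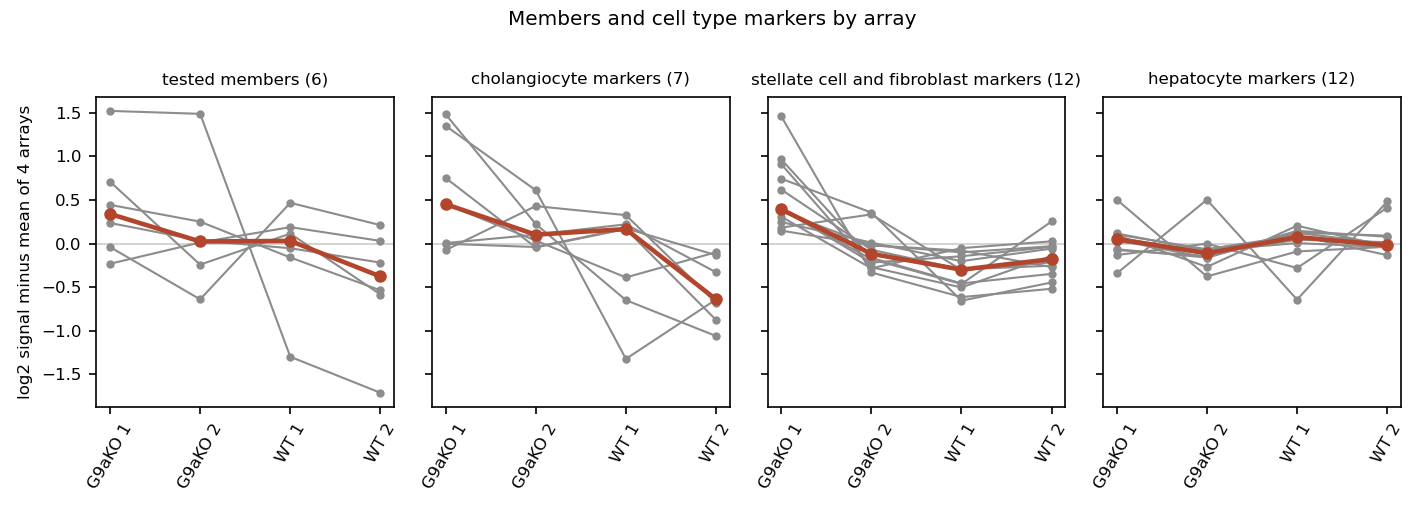
Log2 signal minus each gene's mean over the 4 arrays, on each G9aKO array and then each WT array, for the 6 tested members, 7 cholangiocyte, 12 stellate cell and fibroblast and 12 hepatocyte markers, where grey lines join the values of 1 gene and the red line is the median of the list. The stellate cell and fibroblast median is highest on G9aKO 1, without which its difference is 0.15. The median line of the hepatocyte markers, with a median difference of -0.05, lies near 0, while single genes such as Ass1 spread further.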

How the data were processed

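RNA of non-tumorous liver from 2 G9aKO and 2 WT mice was hybridised to Affymetrix GeneChip Mouse Genome arrays, 1 per mouse. MAS5 is the software the submitters' processing notes name, without a version. The authors' deposited intensity is linear and was scaled per array to a common trimmed mean. The deposited p-value is the detection p behind each call of Present, Marginal or Absent. The series matrix repeated these signals to within a relative 5e-06.

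Of 45101 probe sets, 64 controls were left out, 34945 named 1 gene, 932 named several and 9160 named none; genes were named only from the first of these. Symbols were checked by Entrez identifier for 34754 probe sets in a RefSeq gene table of GRCm38.p6, and 0 changed. Log2 signals with no pseudocount were compared with limma 3.58.1 in R 4.3.3 (lmFit, eBayes with a mean-variance trend), G9aKO minus WT. A gene stood at its brightest probe set Present on at least 2 arrays. P-values were adjusted by Benjamini-Hochberg over all 10350 genes, or 17158 probe sets, with a threshold of 0.05, at 2 residual and 4.02 prior degrees of freedom (4.6 for probe sets). The script was tested on simulated data. An exact permutation test of 2 against 2 arrays cannot give a two-sided p below 0.33, so none was used. The number of arrays limits the precision, and nothing in the labels gives a batch, date or pairing.

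Named were all members with every probe set and the 3 genes of smallest p in each list (4 by adjusted p had any passed). The 5 genes nearest to Tmprss4 in pattern and Ehmt2 were also named. Alb, Krt19, Krt7, Epcam, Cdx2, Fabp2, Vil1, Gpc3, Spink1, Igf2 and genes Absent throughout were named after their values were seen. The members and the lists were chosen with earlier results of these data known. Alternatives covered normalization, the detection filter, a pseudocount of 16, the variance trend, the probe set of a gene, the methods' t-test, the series matrix and leaving out each array. Listed genes outside the annotation used were not analysed here, and one listed marker among those of smallest p is not named.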

Additional observations from a re-analysis of the deposited data

Results flagged for a closer look

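Spint1 (HAI-1) was outside the tests because it was Present on 1 array only, yet it gave a signal in G9aKO livers above that in WT livers. Its log2 difference was 0.75, with 164.8 and 108.6 in G9aKO livers and 68.77 and 91.46 in WT livers. The detection p was 0.0142 and 0.0562 on the G9aKO arrays and 0.112 and 0.195 on the WT arrays. All 4 signals lay below the 95% quantile of Absent signals. No group held the 4 samples needed to look for a sample apart from the rest.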

How the results depend on the processing

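Of 82 alternative values of the member differences, 79 kept their direction and their side of the threshold, or moved by less than the spread between replicates. The difference of Tmprss2, 0.47, was -0.01 without G9aKO 1 and -0.01 to 0.95 over the arrays left out. That of Hgf, -0.68, was 0.24 as the mean of its probe sets, which disagree, and that of Tmprss4 was 2.76 with log2(signal + 16). The bound of 8.07-fold for Tmprss4 was 3.44-fold with the higher floor.

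The 33 genes called higher and 7 called lower were 11 and 4 with no detection filter and 19 and 7 when Present on all 4 arrays was required. They were 0 and 0 without the mean-variance trend in limma (645 and 318 at an unadjusted p under 0.05) and 0 and 0 by the methods' t-test (449 and 406 unadjusted). Leaving out 1 array gave 8 to 54 higher and 0 to 17 lower, with 54 and 17 without G9aKO 2. With an array left out, its group's lone array is assumed to vary like the other group. The count of members called, 1, was 0 with either detection filter, without the trend and by the methods' t-test, and 0 to 1 with an array left out. That member is Tmprss4, whose value chose the set, so nothing is read from these counts. The cause was not tested.

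Of 154 alternative values of the list medians 149 moved by less than the spread between replicates. The trypsin-like list, 0.30, was -0.08 with no detection filter and 0.49 with Present on all 4 arrays, where a different number of genes is tested. The stellate cell and fibroblast list, 0.43, was 0.15 to 0.57 over the arrays left out, and the intestinal list, 0.63, was 0.47 to 0.90 (0.90 without WT 1) and 0.27 with Present on all 4 arrays. No paired analysis was possible because the labels give no shared replicate numbers. Of Absent signals 95% lay below 170.5 to 181.1, so differences among dimmer probe sets are uncertain.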

Other observations

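Another 6 marker lists were described in the same livers, and 0 of their 36 tested genes passed the adjusted threshold by either test. Before adjustment, limma gave 6 higher and 1 lower with p under 0.05, where 5.92% of all genes were higher and 4.1% lower, and the methods' t-test gave 1. All 12 macrophage and Kupffer cell markers lay above 0, where 53.4% of all genes tested did. They had a median log2 difference of 0.51 (0.17 to 0.83 over the arrays left out). Their summed signal was 64020 and 40780 in G9aKO livers and 28080 and 42220 in WT livers, so the sums overlapped between groups. Gene by gene, both G9aKO arrays were above both WT arrays at 4 of the 12 and below them at 0. Of all probe sets naming 1 gene, 19.9% were above and 17.5% below in this way. Among them were the lysozyme gene Lyz2 (log2 difference 0.88, adjusted p = 0.48), the chemokine receptor Cx3cr1 (1.77, adjusted p = 0.532) and the growth factor receptor Csf1r (0.60, adjusted p = 0.535). Cx3cr1 was Present only on G9aKO 1 and WT 1, with 207.1 and 134.7 in G9aKO livers and 109.5 and 21.86 in WT livers. Of the sinusoidal endothelial markers 8 were tested, with a median of 0.12 (-0.06 to 0.21 over the arrays left out). Lyve1, a hyaluronan receptor of sinusoids, had 759 and 550.4 in G9aKO livers and 1025 and 1639 in WT livers (-1.0, adjusted p = 0.32), and Cdh5 (0.40, adjusted p = 0.588) and Oit3 (0.21, adjusted p = 0.724) lay above 0. Lymphocyte and neutrophil markers, 4 tested, had a median of 0.01, which was -0.72 without G9aKO 1 and 0.75 without G9aKO 2, with Cd8a at -0.46 (adjusted p = 0.773), S100a9 at 0.25 (adjusted p = 0.938) and Ms4a1 at -0.03 (adjusted p = 0.986).

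Liver tumour and progenitor markers, 7 tested, were all above 0, where 53.4% of all genes tested were. They had a median of 0.68 (0.20 to 1.23 over the arrays left out) and sums of 6558 and 2764 in G9aKO livers and 1764 and 1705 in WT livers. Afp, the fetal liver protein used as a marker of liver cancer, had 3058 and 1159 in G9aKO livers and 252.4 and 115.6 in WT livers (log2 difference 3.46, SE 0.54, adjusted p = 0.0957). Bex1, a small adaptor protein, was at 1.65 (adjusted p = 0.475). Both G9aKO arrays were above both WT arrays at 4 of the 7, where 19.9% of all probe sets naming 1 gene were. Gpc3 (0.03, adjusted p = 0.991), Spink1 (0.68, adjusted p = 0.854) and Cd44 overlapped. Of the 2 not tested, Dlk1 was Absent throughout and lower on both G9aKO arrays. Igf2 was Present only on WT 1, with 178 and 97.95 in G9aKO livers and 683.7 and 13.89 in WT livers. Of 10 intestinal epithelium markers 5 were tested, with a median of 0.63. Tff3, a trefoil peptide secreted by mucous epithelia, had 8424 and 3083 Present in G9aKO livers and 475.6 and 216.8 Absent in WT livers, at least 15.9-fold (adjusted p = 0.0718). It met the detection filter only through its Present calls on the G9aKO arrays. Tff3 was among the 6 genes that limma gave as higher before adjustment, and it was the 1 that the methods' t-test gave. Lgals4 (0.68, adjusted p = 0.346) and Alpi (0.54, adjusted p = 0.661) were nearer to 0. Cdx1, Muc2, Lct and Guca2a were Absent on all arrays. Cdx2 was not tested, being Present only on G9aKO 2, with 75.72 and 153.2 in G9aKO livers and 72.39 and 22.73 in WT livers. Fabp2 (-0.15), Present on all arrays, and Vil1 (0.63), Present on all but WT 2, overlapped between groups. Of 8 pancreatic acinar genes on the array none was tested and 6 were Absent throughout. The hepatocyte markers of smallest p were Cps1 (-0.23, adjusted p = 0.494), Asgr1 (-0.22, adjusted p = 0.532) and Fga (-0.17, adjusted p = 0.752).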
